A study of Mus musculus with 17 samples.

Results

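Intercalated cells of the mouse kidney were examined in droplet-based single-cell RNA sequencing of 9 kidney libraries. Members were chosen by measured UMIs (unique molecular identifiers, counted transcript molecules) of single genes. A cell was a member when it had at least 200 genes, at most 30% of its UMIs from mitochondrial genes, at least 2 UMIs of Atp6v1g3 and Foxi1 together, at least 1 of Slc4a1, Slc26a4 and Atp6v0d2 together, at most 2 of Aqp2 and 0 of Ptprc. By this rule 737 of 68159 kidney cells that met the gene and mitochondrial limits were members (1.08%), out of 107534 cell barcodes in the 17 libraries of the series. None of 30621 such cells in the 8 skin libraries was a member, which allows a share of up to 0.0098%.

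All kidney animals carried PDGFRb-Cre and the Z/EG reporter, which gives GFP where Cre has acted, and were 8-week-old at the start. SARAWT animals had no further transgene. SARATg animals also carried a human ZFYVE9 cDNA, which encodes SARA, an endosomal adaptor that binds receptor-regulated Smads, behind a Cre-removable stop cassette and a CAG promoter at the Rosa26 locus. Aristolochic acid (AA), a plant nephrotoxin that forms DNA adducts and injures above all the proximal tubule, was given intraperitoneally at 5 mg/kg 3 times a week for 3 weeks, and controls were given vehicle by the same route. The groups were SARAWT vehicle (3 libraries), SARAWT AA (3), SARATg vehicle (2) and SARATg AA (1). GFP+ cells had been sorted, so the libraries hold what passed a reporter gate rather than the whole kidney. In the members of 8 of the 9 libraries Pdgfrb, the gene whose promoter drives the Cre, had 0 UMIs, and in SARATg AA 1 it stood at 4.12 counts per 1e+06 UMIs of the members (CPM).

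Intercalated cells lie among the principal cells of the connecting tubule and collecting duct and keep the acid-base balance of the body. Type A cells secrete protons into the urine with a vacuolar-type H+-ATPase (V-ATPase) in the apical membrane and return bicarbonate to the blood through the anion exchanger AE1, the product of Slc4a1. Type B cells carry pendrin, the product of Slc26a4, in the apical membrane, where it secretes bicarbonate in exchange for chloride. Foxi1 is the transcription factor that specifies both.

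Members were spread unevenly over the libraries. In the order SARAWT vehicle 1, 2 and 3 there were 42, 368 and 12 members, in SARAWT AA 1, 2 and 3 there were 69, 65 and 38, in SARATg vehicle 1 and 2 there were 39 and 24, and in SARATg AA 1 there were 80. SARAWT vehicle 2 thus held 49.9% of all members. Members of a library summed to 139329 to 4218683 UMIs, with medians of 6734 to 12598 UMIs per cell, and their median mitochondrial share was 11.1% to 24.0%. Doublet prediction marked 67 members, and 12 carried a barcode that also occurs in another library.

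Some libraries stood apart from their labels before any comparison. Mouse Zfyve9 over all kidney cells was 166 CPM in the library labelled SARAWT AA 1 and 20.7 CPM in the library labelled SARATg AA 1, against 95.8 and 92.2 CPM in the SARATg vehicle libraries and 10.9 to 31.9 CPM in the other SARAWT libraries, so for both libraries the level goes against the genotype in the label. The human cDNA itself was not analysed here. In proximal tubule cells of the library labelled SARAWT vehicle 3, Cdkn1a, a p53 target that halts the cell cycle, was 328 CPM, against 21.4 and 6.81 CPM in SARAWT vehicle 1 and 2 and 206 to 310 CPM in the SARAWT AA libraries. Havcr1, the kidney injury molecule of damaged proximal tubules, was 53.2 CPM there, against 0.919 and 3.30 CPM in the other SARAWT vehicle libraries and 16.0 to 58.8 CPM with AA. This library lay with the treated ones, and for AA the list counts and the tests of single genes that it bears on are also given without it. It was singled out by these measured levels, so calls made without it depend on that choice and are no independent test, least of all for p53 targets. Psmb8, Psmb9 and Isg15 in its proximal tubule cells also lay within the SARAWT AA range, so the same holds for interferon-stimulated genes. Xist, the RNA that silences one X chromosome in females, was high and the Y-linked Ddx3y was absent in members of SARAWT vehicle 2 and SARATg AA 1 alone, so within SARATg the treatment and the sex of the animals cannot be told apart.

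The genes of the rule describe the members and were not tested. Atp6v1g3 (chr1:138273738-138289462), a V-ATPase subunit, stood at 5805, 6643 and 6495 CPM in SARAWT vehicle 1 to 3, at 6149.7, 11614 and 7597 CPM in SARAWT AA 1 to 3, at 5561 and 7925 CPM in SARATg vehicle 1 and 2 and at 6184 CPM in SARATg AA 1. Foxi1 (chr11:34204338-34208089) stood at 409.6, 369 and 144 CPM with vehicle in SARAWT and at 296, 475 and 517 CPM with AA. Atp6v0d2 was 706 to 1069 CPM over the 9 libraries. At least 1 UMI of Atp6v1g3 was found in 99.9% of members and in 1.68% of 33587 kidney cells with Ptprc, a pan-leukocyte gene whose cells should lack these transcripts. For Foxi1 the shares were 86.3% and 0.444%, for Slc4a1 43.7% and 0.244%, and for Slc26a4 40.0% and 0.304%. After thinning each cell to 1000 UMIs, which left out 10 members and 268 cells with Ptprc, Atp6v1g3 was found in 98.6% of members and 0.576% of cells with Ptprc. At that depth the share of members was 58.2% for Atp6v0d2, 30.4% for Foxi1, 23.7% for Slc26a4 and 21.0% for Slc4a1, against 0.297%, 0.114%, 0.0690% and 0.0600% of cells with Ptprc. Only 2 members sat at the limit of 2 UMIs of Atp6v1g3 and Foxi1, with 5 UMIs of Atp6v0d2 between them, and 6 cells just below the limit, with 1 UMI, had 5 UMIs of Slc26a4 and 3 of Atp6v0d2 in all. The other 735 members had 3 or more.

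Genes that the rule did not use carried the same identity. The gene with the highest ratio to all other kidney cells was Aqp6, an intracellular aquaporin of acid-secreting cells, at 493 ± 277 CPM (SD over 9 libraries) and 182-fold above the other cells (1 CPM added on both sides). It was followed by Atp6v1c2, a collecting duct form of the C subunit, at 602 ± 91.0 CPM and 174-fold, the homeobox gene Hmx2 at 301 ± 169.8 CPM and 132-fold, Spink8 at 692 ± 164 CPM and 113-fold, and the ammonia channel Rhbg at 300.1 ± 89.5 CPM and 108-fold. Slc4a9, the basolateral bicarbonate transporter of type B cells, was 105-fold higher than in the other kidney cells. The guanylin gene Guca2a was 97.8-fold, the B1 subunit Atp6v1b1 97.4-fold, the vasopressin V1a receptor Avpr1a 91.7-fold and the oxoglutarate receptor Oxgr1 91.2-fold higher. Ckmt1, the mitochondrial creatine kinase that buffers ATP, reached 921 ± 373 CPM and 81.9-fold. Levels of Atp6v1c2 (446 to 774 CPM) and Avpr1a (111 to 203 CPM) varied little between libraries, and those of Aqp6 (139 to 922 CPM) and Hmx2 (47.0 to 521 CPM) varied widely.

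The 23 genes of the V-ATPase list other than the rule genes Atp6v1g3 and Atp6v0d2 summed to 10119 to 12598 CPM in the members of a library, against 2273 to 3371 CPM in the other kidney cells, and the 13 mitochondrially encoded genes to 122512 to 221536 CPM, against 60179 to 119518 CPM. The Foxi1 protein binds forkhead-type elements, and the promoter window of Atp6v1b1 (RefSeq, GRCm38.p6, 250 bases before to 50 after the start) is shown because it holds one such string, TGTTTAC, in capitals. It lies 98 bases before the start at chr6:83742767-83743066 on the plus strand.
Atp6v1b1: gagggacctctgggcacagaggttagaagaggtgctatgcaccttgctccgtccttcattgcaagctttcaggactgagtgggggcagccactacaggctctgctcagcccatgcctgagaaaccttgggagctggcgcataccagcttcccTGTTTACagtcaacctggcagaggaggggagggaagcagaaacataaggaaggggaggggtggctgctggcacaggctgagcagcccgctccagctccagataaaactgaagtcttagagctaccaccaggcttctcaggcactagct
On either strand this string was in 3.65% of 32851 mouse promoter windows, or 4.05% of 27025 genes with a window, and in 1 of the 8 pan intercalated cell markers with a window. The match is a description of the sequence and not evidence of binding.

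Markers of other cells were present at levels that differed between libraries. The 16 proximal tubule markers summed to 17914, 6201 and 352 CPM in SARAWT vehicle 1, 2 and 3, to 1806, 2197 and 888 CPM in SARAWT AA, to 3722 and 782 CPM in SARATg vehicle and to 1752 CPM in SARATg AA, against 5830.1 to 66695 CPM in the other cells of a library. None of these 16 markers was at 0 in every library. The 12 leukocyte markers summed to 12.7 to 484 CPM, against 1510.0 to 26506 CPM in the other cells, with Ptprc at 0 by the rule. The 9 endothelial markers reached 7.18 to 499 CPM, against 36.7 to 786 CPM. The 12 principal cell markers reached 247 to 696 CPM, against 79.6 to 443 CPM in the other cells. How far RNA from other cells contributed to these sums was not tested.

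Slc4a1 and Slc26a4 marked separate cells. Of the 737 members, 320 had UMIs of Slc4a1 only, 293 of Slc26a4 only, 122 of neither and 2 of both. The libraries with at least 10 cells of both kinds were SARAWT vehicle 1 and 2, SARAWT AA 1 and 2 and SARATg AA 1, and the following levels are means over these 5 libraries, as a description with no test since the same cells defined the kinds. Aqp6 was 1005 ± 441 CPM in Slc4a1 cells and 2.93 ± 4.01 CPM in Slc26a4 cells. Kit, a stem cell factor receptor, was 419.6 ± 68.7 against 11.2 ± 9.01 CPM. Dmrt2, a transcription factor, was 179 ± 21.6 CPM against 0 CPM in all 5 libraries.

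Cryab, a small heat shock protein, Mme, the endopeptidase neprilysin, and Adgrf5, an adhesion receptor, were likewise higher in Slc4a1 cells in each of the 5 libraries. On the other side Hmx2 was 0 CPM in the Slc4a1 cells of all 5 libraries and 644 ± 273 CPM in Slc26a4 cells. Insrr, a receptor tyrosine kinase that senses alkaline pH, was 13.9 ± 11.2 against 218 ± 55.1 CPM. Nudt4 was 88.4 ± 42.7 against 920.3 ± 166 CPM, and Nbea, Myo5a, Aldh1l2, Thsd7a and Igfbp5 showed the same order. The ammonia transporters were higher in Slc4a1 cells, where Rhcg was 395 ± 101 against 175 ± 74.3 CPM and Rhbg 457 ± 60.8 against 185 ± 66.7 CPM. Car2, the cytosolic carbonic anhydrase, did not separate the kinds (2813 ± 905 and 3127 ± 886 CPM). Spink8 and Hepacam2, which the type A list holds, were higher in Slc26a4 cells, at 1118 ± 280 against 353 ± 81.6 CPM and 239 ± 30.5 against 85.6 ± 22.7 CPM.

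**Figure D1:**
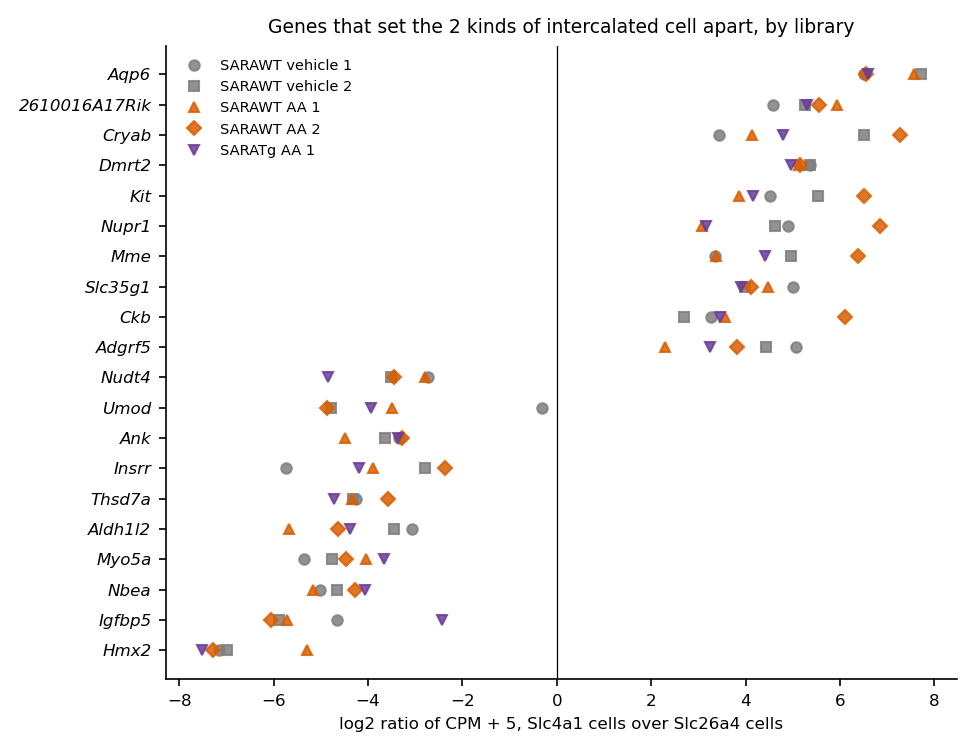
The x axis is the log2 ratio of CPM + 5 in Slc4a1 cells over Slc26a4 cells, with 1 row per gene and 1 symbol per library, coloured by group. The 20 genes were chosen among those with all 5 libraries on the same side of 0, so that agreement is no result. They run from Aqp6 (mean 6.99) at one end to Hmx2 (mean -6.85) at the other.

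The share of intercalated cells among kidney cells was compared between treatments in SARAWT. With vehicle it was 0.381% (exact binomial 95% interval 0.274 to 0.514), 3.38% (3.04 to 3.73) and 0.163% (0.0841 to 0.284), and with AA 0.907%, 1.44% and 0.677%. The vehicle libraries span the treated ones on both sides. The mean difference, AA minus vehicle, was -0.298 percentage points (1.01 ± 0.392 against 1.31 ± 1.80, SD of 3 libraries each; two-sided exact permutation test over 20 assignments, p = 1). Without SARAWT vehicle 2 the difference was 0.737 points, with both vehicle libraries below the 3 AA libraries (exact permutation p = 0.2, the smallest that 3 against 2 allow), and among cells with 0 Ptprc UMIs it was 2.29 points (exact permutation p = 0.3). With 3 libraries against 3 no p under 0.1 is possible. Cells with Ptprc made up 12.1%, 17.2% and 72.3% of the kidney cells with vehicle and 82.1%, 56.1% and 81.3% with AA, and their part in the share of members was not tested. In SARATg the shares were 0.575% and 0.364% with vehicle and 1.03% with AA. The intervals cover counting error only.

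Among the members, Slc26a4 cells made up 61.9%, 46.5% and 33.3% in SARAWT vehicle 1 to 3 and 14.5%, 29.2% and 21.1% in SARAWT AA 1 to 3. The groups did not overlap, and the lowest vehicle value, that of vehicle 3, rests on 4 of 12 cells. The mean difference, AA minus vehicle, was -25.6 points (21.6 ± 7.38 against 47.2 ± 14.3, SD of 3 libraries each), a description with no test since Slc26a4 is a gene of the rule. Leaving out each library in turn gave differences of -32.6 to -18.3 points. Cells with UMIs of neither gene were 11.9%, 5.98% and 25.0% with vehicle and 34.8%, 47.7% and 39.5% with AA. Slc4a1 cells were 26.2%, 47.3% and 41.7% with vehicle and 50.7%, 23.1% and 39.5% with AA, and overlapped. Set against Slc4a1 cells, Slc26a4 cells overlapped too, with 171 against 174 cells in SARAWT vehicle 2 and 19 against 15 in SARAWT AA 2. In SARATg, Slc26a4 cells were 23.1% and 75.0% with vehicle, a spread wider than the difference between treatments in SARAWT, and 35.0% with AA.

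The transcript levels of both exchangers over all members are given as a description. Slc26a4 (chr12:31519827-31559969) was 629, 524 and 488 CPM with vehicle and 289.7, 241 and 191 CPM with AA, with no overlap. Slc4a1 (chr11:102348824-102366203) was 150.4, 391 and 136 CPM with vehicle and 149, 98.0 and 115 CPM with AA, and overlapped. Their sum was 779, 915 and 624 CPM with vehicle and 438, 339 and 306 CPM with AA. Both genes belong to the rule, so no test is given.

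**Figure D2:**
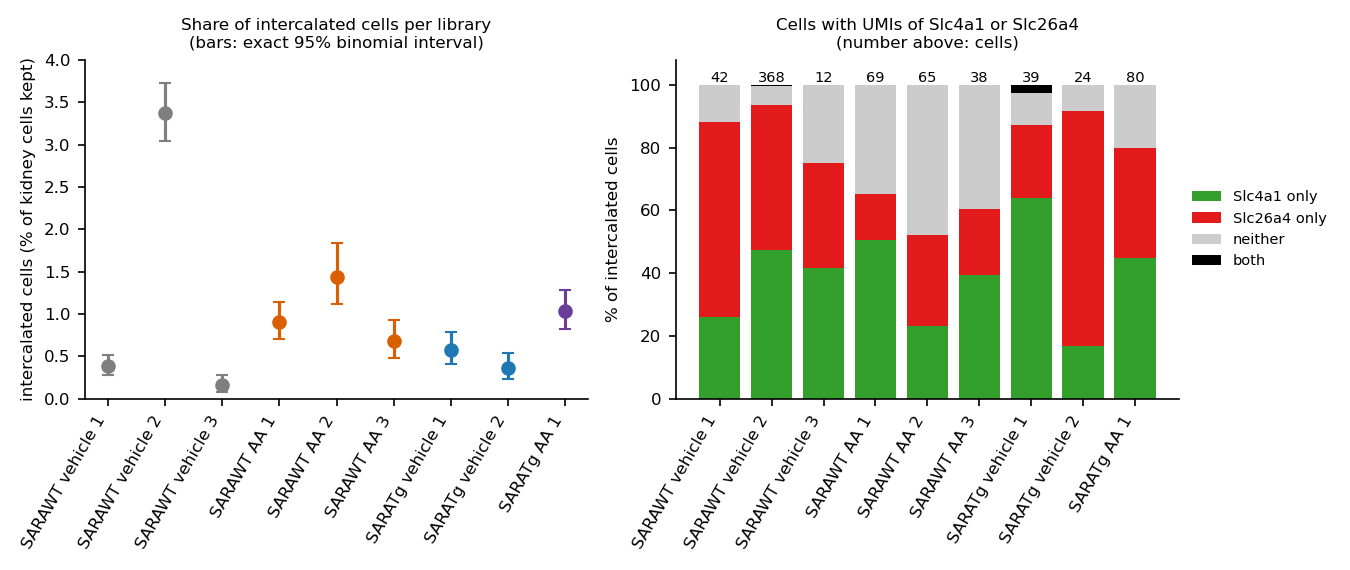
Left, the share of intercalated cells among kidney cells (%) by library, with exact 95% binomial intervals. Right, members by UMIs of Slc4a1, Slc26a4, neither or both (% of members, with the number of members above each bar), where the grey part is 34.8% to 47.7% in SARAWT AA and 5.98% to 25.0% in SARAWT vehicle.

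AA was compared with vehicle in SARAWT members to ask how this cell type responded to the nephrotoxin. UMIs were summed over the members of each library and 7942 genes were tested. No gene passed an adjusted p of 0.05 in edgeR (0% called, lowest adjusted p 0.172), although 1277 genes had an unadjusted p under 0.05 (16.1%), 646 of them higher (8.13%) and 631 lower (7.95%) with AA. DESeq2 called 23 genes (0.29%), 18 higher and 5 lower. Without the library labelled SARAWT vehicle 3, edgeR called 95 of 8033 genes (1.18%), 39 higher (0.485%) and 56 lower (0.697%), and 9.44% of the genes were higher and 10.1% lower at an unadjusted p under 0.05. That library was nearer to the AA libraries for 28 of the 39 and 53 of the 56. DESeq2 called 14 of the 95 with all libraries, but in the main edgeR fit none passed with that library kept. The count of nearer genes thus follows in part from how the genes were chosen. The share over all tested genes is not given, and nothing is read from the count. The running numbers in the labels of the 2 remaining vehicle libraries lie far below those of the other kidney libraries, so in that comparison treatment and series of library cannot be told apart. Nothing in the labels states that libraries of a group came from separate animals, and p-values then measure the spread between libraries.

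Several interferon-stimulated and antigen-processing genes stood higher with AA. Cells switch on such genes in response to interferons to present peptides and restrain infection. Psmb8 (chr17:34197721-34201454), a catalytic subunit of the immunoproteasome, was 5.44, 4.27 and 57.4 CPM with vehicle and 108, 76.7 and 126 CPM with AA. In SARATg it was 18.6 and 8.14 CPM with vehicle and 69.0 CPM with AA. Psmb9 (chr17:34181987-34187764), its neighbour in the major histocompatibility region, was 0, 3.32 and 14.4 CPM with vehicle and 27.4, 23.4 and 36.9 CPM with AA. Neither gene overlapped between the SARAWT groups, and in both the library labelled vehicle 3 was the highest of the vehicle libraries. The higher Psmb8 was not particular to the members. In proximal tubule cells it was 2.58, 1.84 and 114 CPM with vehicle and 149, 83.1 and 252 CPM with AA. In distal tubule cells it was 17.2, 11.7 and 121 CPM against 128, 80.3 and 101 CPM. The interferon and class I list had median log2 differences of 1.60 and 0.96 in these 2 classes, which are defined below. In the members the log2 difference was 3.74 ± 0.71 (SE) for Psmb8 and 3.24 ± 0.65 for Psmb9, each with an adjusted p of 0.172. Without vehicle 3 both passed, with Psmb8 higher by 4.64 ± 0.41 (adjusted p = 0.000376) and Psmb9 by 3.54 ± 0.60 (adjusted p = 0.0260), and with Isg15 they were the 3 of the 19 tested genes of the interferon and class I list that did. Since that library was high for these genes in proximal tubule cells too, passes of this group without it are no independent test.

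Isg15 (chr4:156199424-156200818), a ubiquitin-like modifier induced by interferon, was 1.81, 1.90 and 0 CPM with vehicle and 31.3, 19.2 and 15.2 CPM with AA. In SARATg it was 18.6 and 0 CPM with vehicle and 34.0 CPM with AA. Its log2 difference in SARAWT was 3.69 ± 0.75 (adjusted p = 0.172) and 3.64 ± 0.75 without vehicle 3 (adjusted p = 0.0418). Ifi27 was 50.7, 55.0 and 71.8 CPM with vehicle and 95.3, 121 and 137 CPM with AA, higher by 1.19 ± 0.28 with no overlap (adjusted p = 0.172), or by 1.29 without vehicle 3 (adjusted p = 0.0566). Psme1, a subunit of the proteasome activator, was 99.7, 137 and 172 CPM with vehicle and 312, 217 and 289 CPM with AA, higher by 1.17 ± 0.26 (adjusted p = 0.172) and by 1.33 ± 0.27 without vehicle 3 (adjusted p = 0.0409). Irgm1, an interferon-inducible GTPase, was 7.25, 10.4 and 57.4 CPM with vehicle and 66.5, 46.9 and 49.9 CPM with AA. Here the vehicle library 3 lay inside the AA range, and the log2 difference was 2.12 ± 0.54 (adjusted p = 0.172), or 2.65 ± 0.36 without it (adjusted p = 0.00921). Psmb10, the third inducible subunit, passed only without vehicle 3 (log2 difference 1.80 ± 0.36, adjusted p = 0.0376). Psmb10 and Psme1 were named after their values were seen.

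The 19 genes of the interferon and class I list that passed the filter on low counts, of 23, had a median log2 difference of 3.16 against -0.01 over all genes. The filter admits a gene that is high in a single library, and with other libraries in the fit fewer genes passed it, 12 with a median of 1.75 without SARAWT AA 1 and 8 with a median of 1.09 with the SARAWT groups alone. At an unadjusted p under 0.05, 14 of the 19 were higher and 0 lower (8.13% and 7.95% of all genes), and 6 did not overlap (7.43% of all genes were higher without overlap). These counts include genes admitted because they were high with AA and nothing is read from them. Without SARAWT AA 1, 6 of 12 were higher, and with the SARAWT groups alone 3 of 8. Classical class I genes were not among the clear ones. H2-K1 was 43.5, 167 and 617 CPM with vehicle and 793, 83.1 and 436 CPM with AA, and B2m was 90.6, 127 and 402 CPM against 549, 143 and 234 CPM. The summed level of the list overlapped, at 279, 537 and 1888 CPM with vehicle and 2885, 688 and 1609 CPM with AA. Leukocyte markers, which were also higher with AA in the members (12.7, 103 and 115 CPM against 432, 166 and 261 CPM, with Ptprc at 0 by the rule), moved with this list, and their part in it was not tested. The median of the list was 0.82 to 3.46 under the alternatives tried.

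Isg15, Ifit1 and Bst2 are shown by their promoter windows because interferon-stimulated genes are known for a repeated TTTC element, here searched as TTTC, any 2 bases and TTTC again on either strand and set in capitals (RefSeq, GRCm38.p6, 250 bases before to 50 after the start). Isg15 is at chr4:156200769-156201068 on the minus strand, Ifit1 at chr19:34640639-34640938 on the plus strand and Bst2 at chr8:71537423-71537722 on the minus strand.
Isg15: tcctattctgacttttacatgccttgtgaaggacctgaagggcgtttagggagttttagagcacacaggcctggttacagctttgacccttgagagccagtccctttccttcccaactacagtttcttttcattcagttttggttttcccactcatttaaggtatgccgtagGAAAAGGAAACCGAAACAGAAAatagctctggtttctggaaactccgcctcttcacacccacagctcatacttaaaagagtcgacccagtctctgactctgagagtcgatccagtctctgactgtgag
Ifit1: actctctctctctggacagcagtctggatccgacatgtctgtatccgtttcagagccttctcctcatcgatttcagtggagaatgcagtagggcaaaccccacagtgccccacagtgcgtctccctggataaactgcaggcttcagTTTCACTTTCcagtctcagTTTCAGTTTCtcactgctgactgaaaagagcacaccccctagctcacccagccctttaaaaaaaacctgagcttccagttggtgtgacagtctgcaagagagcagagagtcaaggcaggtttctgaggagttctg
Bst2: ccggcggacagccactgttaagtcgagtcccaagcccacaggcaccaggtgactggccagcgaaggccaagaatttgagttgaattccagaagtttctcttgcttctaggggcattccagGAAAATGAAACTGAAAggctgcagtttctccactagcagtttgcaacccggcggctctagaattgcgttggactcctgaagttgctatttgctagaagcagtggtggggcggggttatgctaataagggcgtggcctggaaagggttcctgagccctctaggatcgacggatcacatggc
Isg15 holds 3 overlapping matches, and Ifit1 and Bst2 hold 2 each. The element was in 3.44% of 32851 mouse promoter windows, or 3.99% of 27025 genes with a window, and in 6 of the 18 list genes with a window (B2m, Bst2, Ifit1, Ifit3, Ifitm3 and Isg15). Of the 3 genes shown, Isg15 alone passed the test, without vehicle 3. A match describes the letters in the window only.

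**Figure D3:**
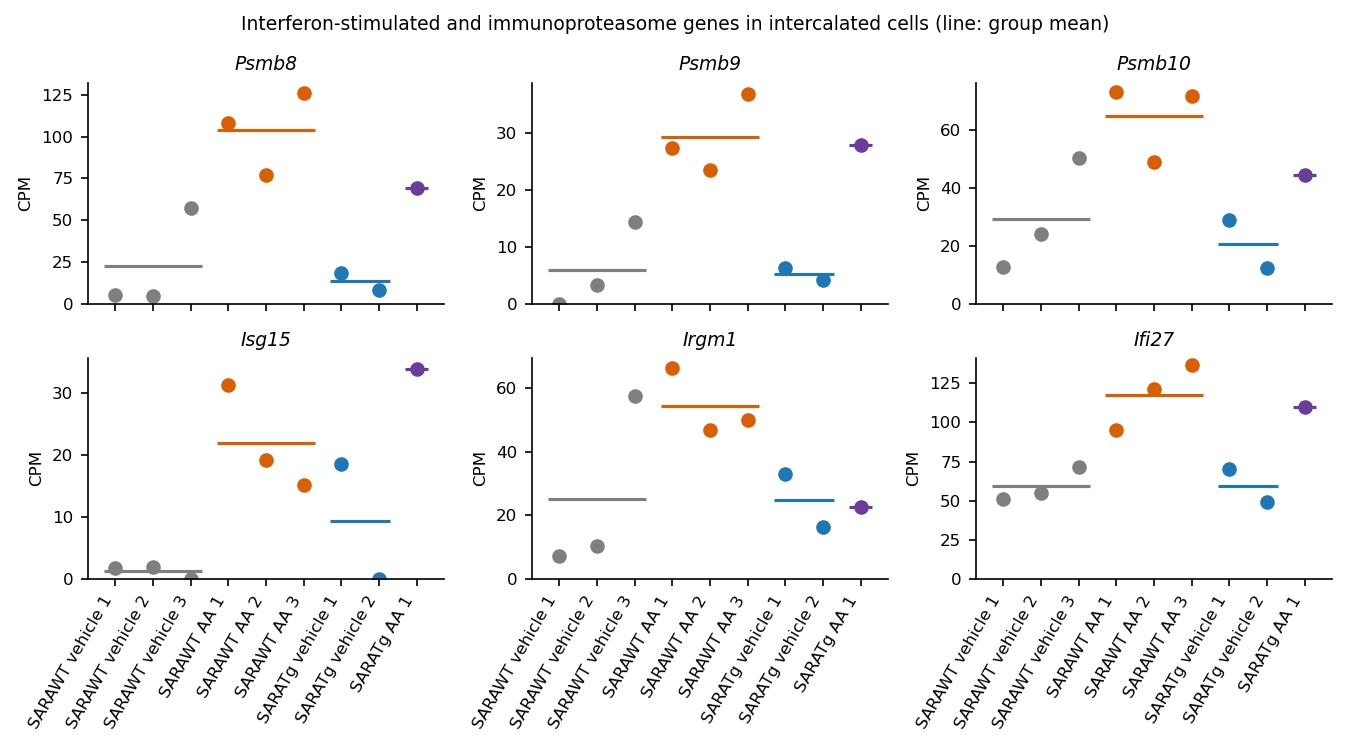
CPM in intercalated cells by library for Psmb8, Psmb9, Psmb10, Isg15, Irgm1 and Ifi27, with points for libraries and lines for group means. Psmb8, Psmb9, Isg15 and Ifi27 do not overlap between SARAWT AA and SARAWT vehicle, and the library labelled SARAWT vehicle 3 is the highest of the SARAWT vehicle libraries for Psmb8, Psmb9, Psmb10, Irgm1 and Ifi27.

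Aldoa, Ldha, Gapdh, Ckb and Ckmt1 did not pass in edgeR with all libraries, and the first 3 were named after their values were seen. Aldoa, the muscle-type aldolase of glycolysis, was 1509.6, 1519 and 1902 CPM with vehicle and 2899, 3224 and 3003 CPM with AA. Ldha, lactate dehydrogenase A, was 361, 356 and 553 CPM against 883, 607 and 966 CPM, and Gapdh 1830.3, 1582 and 1672 CPM against 2719, 2623 and 2864 CPM. None of the 3 overlapped between the groups. The log2 differences were 1.01 ± 0.21 for Aldoa, 1.10 ± 0.26 for Ldha and 0.81 ± 0.19 for Gapdh, each with an adjusted p of 0.172, and DESeq2 called all 3. Without vehicle 3 Aldoa (1.15 ± 0.24, adjusted p = 0.0412) and Ldha (1.33 ± 0.26, adjusted p = 0.0376) passed and Gapdh (adjusted p = 0.0979) did not. Ckmt1 (chr2:121357714-121363737), one of the genes that mark this cell type, was 498, 667 and 1062 CPM with vehicle and 1259, 1328 and 1455 CPM with AA, without overlap, which did not pass with all libraries (adjusted p = 0.183) and was higher by 1.35 ± 0.26 on the log2 scale without vehicle 3 (adjusted p = 0.0369). Ckb, the cytosolic brain-type creatine kinase, was 81.5, 161 and 294 CPM with vehicle and 389, 586 and 628 CPM with AA. It was higher by 1.80 ± 0.42 (adjusted p = 0.172), by 2.25 ± 0.39 without vehicle 3 (adjusted p = 0.0298), and was called by DESeq2. Ckb is also on the list of thick ascending limb markers. In the 5 libraries with both kinds it was 505 ± 354 CPM in Slc4a1 cells and 27.8 ± 12.9 CPM in Slc26a4 cells, whose share was lower with AA. The part of either in its difference was not tested.

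Nuclear genes of the respiratory chain lay above 0 with AA. All 56 tested subunits of complexes I, III and IV were above 0, with a median log2 difference of 0.53, and at an unadjusted p under 0.05, 32 were higher and 0 lower, beside 8.13% and 7.95% of all genes. Of the 16 ATP synthase genes 9 were higher and 0 lower (median 0.62), and of the 13 mitochondrially encoded genes 1 was higher and 0 lower (median -0.09). Without vehicle 3, 21 of the 56 and 7 of the 16 were higher and 0 lower, with medians of 0.53 and 0.62, and of the mitochondrially encoded genes 0 were higher and 1 lower (9.44% of all genes were higher and 10.1% lower). Cox7c, a small subunit of complex IV, was 1294, 1761 and 1493 CPM with vehicle and 1978, 3695 and 3053 CPM with AA, and Ndufa3, of complex I, was 223, 429 and 287 CPM against 356, 927 and 688 CPM. Ndufa3 overlapped and Cox7c did not. Their log2 differences were 1.07 ± 0.27 and 1.19 ± 0.36 (adjusted p = 0.172 and 0.193), or 1.09 and 1.16 without vehicle 3 (adjusted p = 0.111 and 0.166). The summed level of the 56 genes was 48123, 54847 and 50026 CPM with vehicle and 56986, 86557 and 67698 CPM with AA, and SARAWT AA 2, the highest, also had the lowest mitochondrially encoded sum (122512 CPM, against 175015 to 207078 CPM with vehicle). Without SARAWT AA 2 the median was 0.33 for the respiratory chain and 0.36 for ATP synthase. At an unadjusted p under 0.05, 8 of the 56 and 1 of the 16 were then higher and 0 lower, beside 506 of 8206 genes higher. Without SARAWT vehicle 1 or vehicle 2, 14 and 17 of the 56 were higher. Cytosolic ribosomal protein genes, a group looked at after the data were seen, moved with these lists. Of 81 tested, 80 were above 0 with a median of 0.52, and 47 were higher and 0 lower at an unadjusted p under 0.05. Rpl41 was 1386, 1708 and 1823 CPM with vehicle and 1842, 4066 and 3787 CPM with AA. Srrm2, which has a long transcript and was named after its values were seen, went the other way. It was 420.4, 451 and 402 CPM with vehicle and 262, 147 and 156 CPM with AA. The part of RNA quality or transcript length in the respiratory chain values was not tested.

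Of the 18 V-ATPase subunits tested outside the rule the median was 0.01, with 3 higher and 0 lower at an unadjusted p under 0.05 (8.13% and 7.95% of all genes): the widely expressed stalk subunits Atp6v1e1, Atp6v1f and Atp6v1g1 (log2 differences 0.64 ± 0.24, 0.47 ± 0.21 and 0.67 ± 0.23). The kidney-type subunits Atp6v1b1 (-0.34 ± 0.22), Atp6v1c2 (-0.02 ± 0.23) and Atp6v0a4 (-0.42 ± 0.23) did not pass. Without vehicle 3 the median was -0.04, with 3 higher and 1 lower. In Slc4a1 cells alone it was 0.18, with 14 of 17 above 0, 2 higher and 0 lower. The fit of Slc4a1 cells also lacked SARAWT vehicle 3 and SARATg vehicle 2, which had 5 and 4 such cells. The summed level of the 23 genes outside the rule was 10119, 12009.9 and 11569.7 CPM with vehicle and 10872, 12598 and 11176 CPM with AA, and overlapped.

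Acid-base transporters and carbonic anhydrases lay mostly below 0 with AA (median -0.44 over 16 tested genes, 1 higher and 4 lower at an unadjusted p under 0.05, beside 8.13% and 7.95% of all genes). Without vehicle 3 the median was -0.34 over 15 genes, with 1 higher and 2 lower. In Slc4a1 cells alone, a fit that also lacked SARAWT vehicle 3 and SARATg vehicle 2, the median was -0.03 with 6 of 13 above 0. The share of Slc26a4 cells was itself lower with AA, and its part in these values was not tested. Slc4a9 was 165, 138 and 244 CPM with vehicle and 75.7, 27.7 and 104 CPM with AA, without overlap, with a log2 difference of -1.21 ± 0.46 (adjusted p = 0.244), or -0.98 without vehicle 3 (adjusted p = 0.258). Car2, the one gene of the list higher at that limit, was 2111, 2496 and 2541 CPM with vehicle and 2991, 4419.6 and 3027 CPM with AA, higher by 0.67 ± 0.23 (adjusted p = 0.219), or by 0.75 without vehicle 3 (adjusted p = 0.186). The other 3 on the lower side were Slc26a7, Car12 and Car4. Car4 is also a proximal tubule gene, and proximal tubule markers moved in the same direction. The ammonia transporters Rhbg (-0.00 ± 0.34) and Rhcg (-0.58 ± 0.33) did not pass. Marker lists had medians of -0.38 for type A (0 of 10 higher, 1 lower), -0.70 for type B (0 of 7 higher, 2 lower) and -0.34 for pan intercalated cell markers (0 of 11 higher, 1 lower), counts of which 1 of 10 and 1 of 11 are near the 7.95% of all genes that were lower, and without vehicle 3 the medians were -0.49 (2 of 9 lower), -0.12 (1 of 7 lower) and -0.28 (1 of 11 lower). Intercalated cell transcription factors outside the rule had a median of 0.00, with 0 of 9 higher and 1 lower.

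Slc5a3, Insrr and Jag1 stood lower with AA without overlap, as did 12% of all tested genes. Slc5a3 (chr16:92058322-92087473), the sodium-dependent myo-inositol transporter that cells use against osmotic stress, was 159, 256 and 108 CPM with vehicle and 44.4, 40.5 and 43.4 CPM with AA. In SARATg it was 217 and 204 CPM with vehicle and 90.6 CPM with AA. It had the lowest unadjusted p of all genes (2.76e-05), a log2 difference of -1.97 ± 0.30 (adjusted p = 0.172), and -2.15 ± 0.27 without vehicle 3 (adjusted p = 0.00775), and DESeq2 called it. Slc5a3 was chosen after its values were seen. Insrr was 167, 111 and 115 CPM with vehicle and 45.7, 66.1 and 30.4 CPM with AA, with a log2 difference of -1.35 ± 0.40 (adjusted p = 0.190), or -1.39 without vehicle 3 (adjusted p = 0.126). It is a gene of the Slc26a4 cells, whose share was lower with AA, and the part of that share in its difference was not tested. Jag1, a Notch ligand, was 149, 90.3 and 64.6 CPM with vehicle and 36.5, 42.6 and 36.9 CPM with AA, with a log2 difference of -1.32 ± 0.32 (adjusted p = 0.172) and of -1.46 ± 0.31 without vehicle 3 (adjusted p = 0.0480). Among receptors of hormones, Nr3c2 and Nr3c1, the mineralocorticoid and glucocorticoid receptors, had log2 differences of -1.05 ± 0.37 and -0.78 ± 0.29 and unadjusted p under 0.05, and of the 15 tested receptors 1 was higher and 3 lower (median -0.48), beside 8.13% and 7.95% of all genes, and without vehicle 3, 1 of 16 was higher and 4 lower (median -0.46, beside 9.44% and 10.1%).

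By the rule for named genes, the 12 with the largest rise among those that passed without vehicle 3 also held Plac8, the metallothionein Mt2, the stress regulator Nupr1, the transporter Abcc3, Dkk3, Tmem158, Crip1, Tuba1a and Cdkn1a, the last of which helped to single out that library. Plac8 was 21.7, 11.4 and 108 CPM with vehicle and 299, 141 and 189 CPM with AA, a log2 difference of 3.08 ± 0.72 that passed without vehicle 3 (adjusted p = 0.00921). Mt2 was 19.9, 22.0 and 122 CPM with vehicle and 104, 119 and 541 CPM with AA. Abcc3 was 3.62, 7.82 and 14.4 CPM with vehicle and 26.1, 19.2 and 43.4 CPM with AA. In Mt2, Dkk3, Nupr1, Crip1 and Irgm1 the library labelled vehicle 3 lay inside the AA range, and in Tmem158 it was the highest of all libraries, at 337 CPM against 0 and 0.711 CPM in vehicle 1 and 2. In SARATg, Dkk3 was 88.9 and 138 CPM with vehicle and 15.4 CPM with AA, and Nupr1 430.1 and 525 CPM with vehicle and 145 CPM with AA, the opposite order to SARAWT.

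Of the 56 genes that were lower without vehicle 3, 46 had at least 3 times the level in proximal tubule cells that they had in the members, against 0 of the 39 higher genes. The share over all tested genes at that limit is not given, so nothing is read from these counts. SARAWT vehicle 1 and 2, the vehicle libraries of that fit, had the highest proximal tubule marker sums in the members (17914 and 6201 CPM). The 56 genes included Pck1, of gluconeogenesis (328, 402 and 0 CPM with vehicle, 22.2, 19.2 and 4.34 CPM with AA), and the endocytic receptor Lrp2 (288, 312 and 0 CPM against 23.5, 34.1 and 8.69 CPM). They were lower together with the proximal tubule marker sum given above, and how far they are RNA of the members was not tested. The median over the proximal tubule markers was -3.12, and without SARAWT vehicle 1 and 2, with vehicle 3 as the single SARAWT vehicle library, it was 5.23 with 13 of 13 markers above 0, so the direction turns with the vehicle libraries used.

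**Figure D4:**
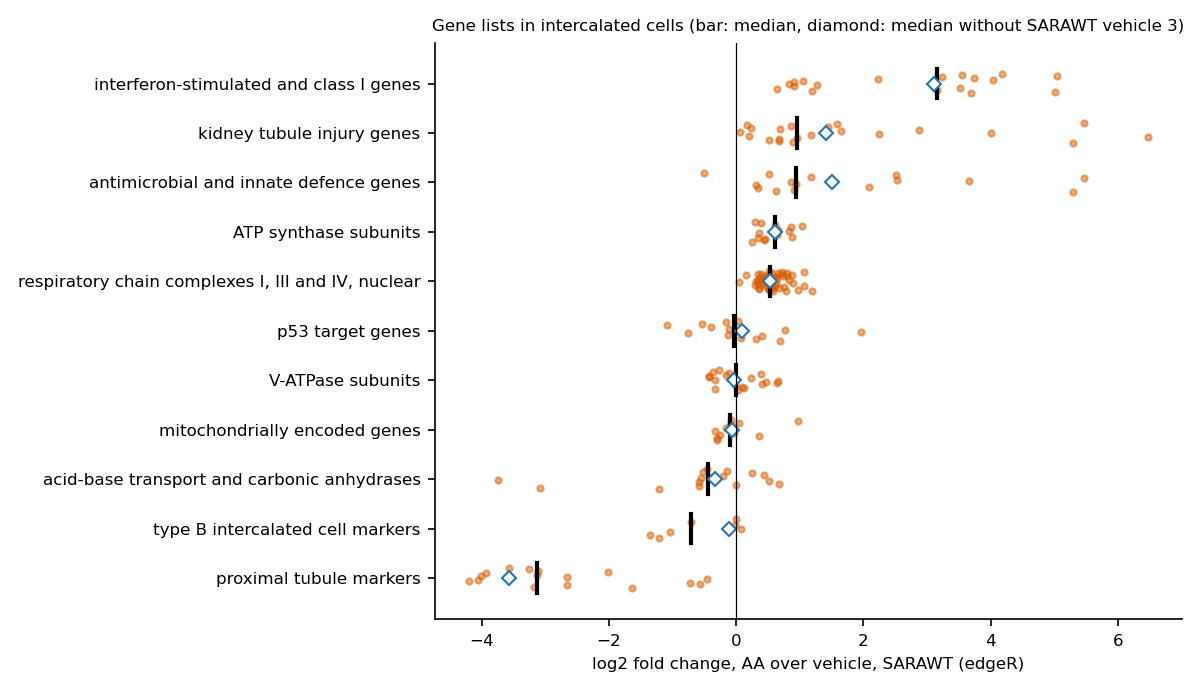
Each orange point is the log2 fold change, AA over vehicle in SARAWT, of 1 tested gene of the list named on the y axis, the black bar is the median of the list and the open diamond its median without the library labelled SARAWT vehicle 3. The interferon list has its median at 3.16 and the proximal tubule markers at -3.12, and the V-ATPase subunits (0.01) and p53 targets (-0.04) sit near 0. The interferon median includes genes admitted because they were high with AA, and was 1.09 over 8 genes with the SARAWT groups alone.

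Kidney tubule injury genes and antimicrobial genes lay mostly above 0. Of the 21 injury genes that passed the filter on low counts 8 were higher and 0 lower at an unadjusted p under 0.05 (median 0.96), and of 15 antimicrobial and innate defence genes 6 were higher and 0 lower (median 0.94), beside 8.13% and 7.95% of all genes. Without vehicle 3 the counts were 13 of 22 and 10 of 15 (beside 9.44% of all genes), and none passed an adjusted p of 0.05 in either comparison. These counts include genes that passed the filter because they were high with AA, such as Vcam1 and Lcn2, and nothing is read from them. The injury list depended on single libraries and on the filter, with a median of 0.57 over 17 genes without SARAWT AA 1, of 1.46 over 22 without AA 2, of 0.63 over 12 with the SARAWT groups alone, and of 0.27 with 14 of 20 genes above 0 without SARAWT vehicle 1 and 2. At an unadjusted p under 0.05, 3 of the 17 were higher and 1 lower without SARAWT AA 1. With the SARAWT groups alone, 2 of the 12 were higher and 0 lower. The leukocyte marker sum in the members was also higher with AA (12.7, 103 and 115 CPM against 432, 166 and 261 CPM), and SARAWT AA 1 was the highest SARAWT library for it and for endothelial markers (211 CPM). The part of these markers in the injury and defence values was not tested. Krt8, a keratin of simple epithelia, was 101, 119 and 179 CPM with vehicle and 283, 143 and 226 CPM with AA. Spp1, osteopontin, was 1685, 1673 and 2864 CPM against 2261, 2915 and 3856 CPM, and overlapped. Lcn2, a siderophore-binding protein that intercalated cells release in urinary infection, was 0, 0.474 and 0 CPM with vehicle and 50.9, 0 and 2.17 CPM with AA, so its difference rested on SARAWT AA 1. Vcam1 and C3 were likewise highest in that library, at 108 and 61.3 CPM. The constitutive defensin Defb1 was 919, 1471 and 2548 CPM with vehicle and 2285, 1543 and 1932 CPM with AA.

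The p53 target genes, which respond to DNA damage, were compared between cell types. In the members 0 of 14 tested genes had an unadjusted p under 0.05 in either direction and the median was -0.04. Without vehicle 3, 2 of 15 were higher and 0 lower at that limit (median 0.09, beside 9.44% and 10.1% of all genes). Cdkn1a passed there, with a log2 difference of 2.29 ± 0.45 (edgeR adjusted p = 0.0369). Nothing is read from that fit, since p53 targets singled the library out. Ccng1 was 114, 119.9 and 115 CPM with vehicle and 104, 141 and 93.4 CPM with AA. Mdm2, the ubiquitin ligase that limits p53, was 36.2, 30.6 and 28.7 CPM with vehicle and 36.5, 36.2 and 36.9 CPM with AA. Cdkn1a was 21.7, 25.8 and 273 CPM against 141, 46.9 and 137 CPM, with overlap and the highest value in the library labelled vehicle 3. The 33 listed genes summed to 861, 1044 and 1119.6 CPM with vehicle and 1054, 652 and 879 CPM with AA in the members, with overlap. In proximal tubule cells they summed to 568, 612 and 1528 CPM with vehicle and 1557, 1522 and 2024 CPM with AA.

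The AA effects were compared as the effect in the members minus that in proximal tubule cells (21872 cells with at least 5 UMIs of Slc34a1, Lrp2, Slc27a2, Slc5a2 and Slc13a3 together) of the same SARAWT libraries. The comparison was chosen after the data were seen, since the planned principal cells were too few. With all libraries 0 of 11835 genes passed in edgeR (0% called), 2051 had an unadjusted p under 0.05 (17.3%), of them 7.59% of all genes higher and 9.74% lower in the members, and 83 genes passed in DESeq2. Among p53 targets 0 of 31 were higher and 10 lower at that limit in the members relative to proximal tubule cells. Their median was -1.15 against -0.18 over all genes, and none passed. In the fit of the members alone 14 genes of this list passed the filter on low counts. Here a gene could also enter through its counts in proximal tubule cells, so nothing is read from these p53 counts or their median. In the other direction 45 of 56 respiratory chain genes and 15 of 16 ATP synthase genes were higher, with medians of 0.70 and 0.68, and none passed. Without vehicle 3, 818 of 12249 genes passed (6.68%), among them 25 of the 56 respiratory chain genes and 7 of the 16 ATP synthase genes as higher, and no p53 result is drawn from that fit, since p53 targets in proximal tubule cells singled the library out. Respiratory chain genes of proximal tubule cells had a median AA difference of -0.18 with all libraries, where 4.87% of all genes were higher and 5.1% lower at an unadjusted p under 0.05.

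Against distal tubule cells (1448 cells with at least 5 UMIs of Slc12a1, Umod and Slc12a3 together) the same comparison was made. With all libraries 0 of 8638 genes passed in edgeR (0% called), 506 had an unadjusted p under 0.05 (5.86%; 2.63% higher and 3.23% lower), and 1 passed in DESeq2. Without vehicle 3, 28 of 9143 passed (0.306%), with 0 of 56 respiratory chain genes among them. Respiratory chain genes of distal tubule cells had a median AA difference of 0.40, with 23 of 56 higher at an unadjusted p under 0.05 (5.37% of all genes were higher and 7.76% lower). For Cox7c the distal tubule levels were 1311, 1726 and 1690 CPM with vehicle and 1861, 3541 and 3155 CPM with AA. The p53 sum in distal tubule cells was 1118, 1409 and 1214 CPM with vehicle and 1448, 1036 and 1172 CPM with AA, and overlapped as in the members.

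**Figure D5:**
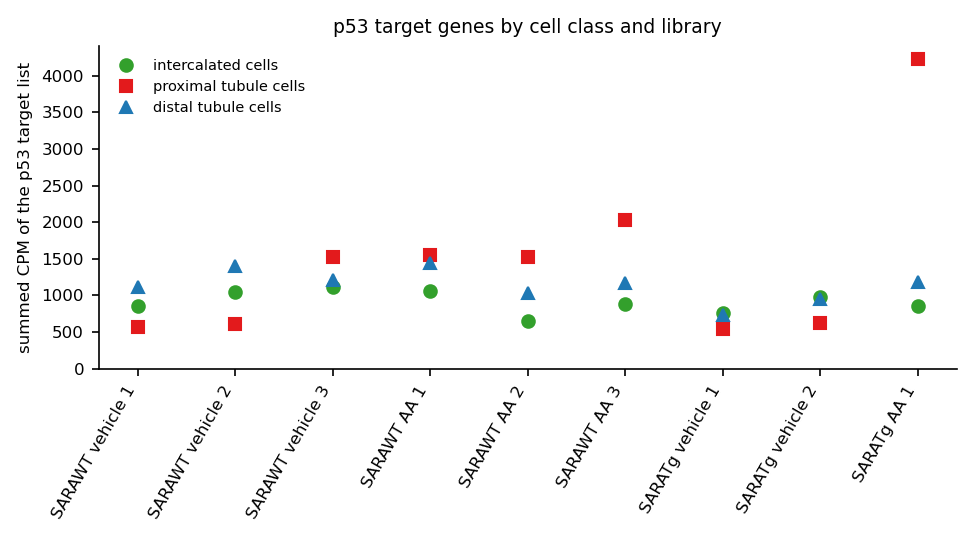
Summed CPM of the p53 target list by library in intercalated, proximal tubule and distal tubule cells. Proximal tubule cells are at 568 and 612 CPM in SARAWT vehicle 1 and 2 and at 1522 to 2024 CPM with AA, with the library labelled SARAWT vehicle 3 at 1528 CPM, and intercalated cells stay between 652 and 1119.6 CPM in all 9 libraries.

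SARATg was compared with SARAWT in the vehicle groups to ask what the transgene does in animals without AA. No gene passed in edgeR among 7942 (0% called, lowest adjusted p 0.969), 344 had an unadjusted p under 0.05 (4.33%; 2.03% higher and 2.3% lower), and 1 passed in DESeq2. Without vehicle 3 edgeR called 0 of 8033 genes, with 526 at an unadjusted p under 0.05 and a lowest adjusted p of 0.120. The running numbers of the SARAWT vehicle libraries left in that fit lie far below the others, so genotype and series of library cannot be told apart there. Zfyve9 (chr4:108637466-108780798) in the members was 130.3 and 159 CPM in SARATg and 54.4, 58.8 and 28.7 CPM in SARAWT, without overlap, a log2 difference of 1.51 ± 0.57 (adjusted p = 0.969). The library labelled SARAWT AA 1 had 153 CPM and the library labelled SARATg AA 1 29.9 CPM, as in the other kidney cells. Hes1, a Notch target, was 213 and 167 CPM in SARATg and 76.1, 79.2 and 93.3 CPM in SARAWT, with a log2 difference of 1.29 ± 0.35 (adjusted p = 0.969), and among 16 tested genes of the SARA and TGF-beta list 2 were higher and 0 lower at an unadjusted p under 0.05.

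Within SARATg the single AA library was compared with the 2 vehicle libraries, on the assumption that it varies like the other groups. Bgn, the matrix proteoglycan biglycan, was the 1 gene of 7942 called (0.0126%), a call that rests on 1 library and is given as a description, with 241 genes at an unadjusted p under 0.05 (3.03%; 2.08% higher and 0.957% lower) and 1 other gene, Col3a1, called by DESeq2. The SARATg AA arm has no spread of its own, and its library is the one whose Zfyve9 goes against the label and whose sex differs from both SARATg vehicle libraries. Bgn was 126 CPM in SARATg AA 1 and 0 CPM in both SARATg vehicle libraries. Col3a1, a fibrillar collagen, was 187 CPM in SARATg AA 1 and 0 CPM in the 8 other libraries, and the 12 pericyte and stromal markers summed to 481 CPM there, against 23.9 to 120.0 CPM elsewhere. Bgn lost the call without either vehicle library (adjusted p 0.103 and 0.498) and without predicted doublets (0.142). The difference in AA effect between genotypes was tested directly and no gene passed in edgeR (0% of 7942, 267 at an unadjusted p under 0.05, 3.36%, with 1.55% higher and 1.81% lower) or in DESeq2.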

How the data were processed

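Kidney and skin tissue had been digested, GFP+ cells sorted and libraries made with the 10x Genomics 3′ v3 chemistry. The authors deposited counts of UMIs per gene and called cell barcode, as whole numbers without normalization, made with Cell Ranger 3.0.2 per the file headers of the kidney libraries. The submitters' processing notes also name Seurat 2.3.4 and mm10. Free RNA had not been subtracted.

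From these counts, members were selected by the rule in the text in Python 3.11.15, UMIs were summed per library, and the 9 sums, each of at least 10 members, were compared in 1 fit of 4 groups with edgeR 4.0.16 in R 4.3.3 (genes kept by filterByExpr, scaling by TMM, a two-sided quasi-likelihood test and Benjamini-Hochberg adjustment over every gene tested, with a limit of 0.05), tested on simulated data. The rule genes were not tested. CPM are members' UMIs of a gene per 1e+06 of their UMIs. For shares, libraries were permuted exactly. Doublets were predicted with scrublet in scanpy 1.11.5 at 0.8% per 1000 cells and kept. Alternatives were DESeq2 1.42.0, other size factors, cell filters and gene filters, leaving out libraries, and a replicate block. Samples were grouped by their labels, and nothing says that libraries of a group came from separate animals. Replicate numbers were not used to pair the libraries, except in the replicate block.

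Named genes are up to 12 per direction with the largest log2 change among those that passed, without overlap and at a mean of at least 20 CPM, the called and highest members of each list, the 20 genes most enriched over other kidney cells at 100 CPM or more, and 10 per kind of cell at 50 CPM or more. The genes per kind of cell also had to have the same direction in each library compared. The members and lists were chosen with earlier results of these data known. Gene positions are from GENCODE vM21 on GRCm38. The planned comparison with principal cells was replaced by proximal and distal tubule cells, and skin cells were used for the share of members only.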

Additional observations from a re-analysis of the deposited data

How the results depend on the processing

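For AA against vehicle in SARAWT, edgeR called 0 genes, and 23 with DESeq2, 544 without a filter on low counts, 31 with stricter cell limits (500 genes, 20% mitochondrial), 42 with the replicate block and 151 with Slc4a1 cells only. Leaving out single libraries gave 0 to 95. For SARATg against SARAWT the counts were 1 with DESeq2, 113 without the count filter, 3 with the block and 0 to 1 leaving out libraries. For AA in SARATg (1 called) they were 64 without the count filter, 2 with the stricter cells, 0 without predicted doublets, 3 with the block, 4 without the library labelled SARAWT AA 1, and 0 leaving out either vehicle library. For the difference between genotypes they were 44 without the count filter, 2 with the block and 0 to 1 leaving out libraries. Against proximal tubule cells they were 83 with DESeq2, 243 without the count filter, 699 with the stricter cells, 1 without doublets, 307 with a block by class and 0 to 818 leaving out libraries, and against distal tubule cells 1, 94 and 25 with the first 3 of these settings, 21 with the block and 0 to 28. A library with under 10 cells in a setting was left out of its fit. With the stricter cell limits SARAWT vehicle 3 was so left out of every comparison. With Slc4a1 cells only, SARAWT vehicle 3 and SARATg vehicle 2 were left out, with 5 and 4 such cells. These settings thus changed the libraries as well as the cells. The cause of the changes in these counts was not tested. The share of members changed direction without SARAWT vehicle 2, which equals the libraries with Y-linked UMIs (0.737 points), and among cells with 0 Ptprc UMIs (2.29 points), and spanned -0.870 to 0.737 leaving out libraries. The share of Slc26a4 cells kept its direction leaving out libraries (-32.6 to -18.3) and with the stricter cell limits (-37.6). The latter compared 3 AA libraries with 2 vehicle libraries, since SARAWT vehicle 3 was left out. Deviations from the group mean of same-numbered SARAWT libraries correlated at -0.033, 0.042 and 0.193. With 3 libraries per group these values cannot decide whether the numbers pair them. In the permutation test the block gave p = 1 for the share of members. The comparison with principal cells could not be fitted, since only 2 SARAWT libraries had 10 cells of both classes. The library labelled SARAWT vehicle 3 held 12 members, and SARATg with AA was 1 library.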

Other observations

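Of the 23 genes that DESeq2 called in SARAWT members, 14 (60.9%) were among the 95 that edgeR called without the library labelled SARAWT vehicle 3, of which they are 14.7%. Named after their values were seen, 6 of the 23 were among 81 tested cytosolic ribosomal protein genes (Rps28, Rpl38, Rps29, Rpl27, Rpl41 and Rpl39), of which edgeR called 0 with all libraries. Without the library labelled SARAWT vehicle 3, edgeR called Rps28 and Rpl27 (adjusted p = 0.0486 and 0.0470). Rps28 was 221, 379 and 452 CPM with vehicle and 547, 1132 and 1220.3 CPM with AA.

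Tgfb1, which encodes the ligand TGF-beta 1, was 0, 4.74 and 7.18 CPM in SARAWT vehicle members and 33.9, 17.0 and 15.2 CPM with AA, without overlap (log2 difference 2.65 ± 0.65, edgeR adjusted p = 0.172), and leukocyte marker levels moved with it.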
